A study of Homo sapiens with 5 samples.

Results

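The genes described here encode the machinery that brings proteins into mitochondria and shapes the inner membrane. They were taken by name from the deposited normalized values. Members were all genes whose symbol starts with TOMM, TIMM, CHCHD, MICOS or SAMM, together with IMMT, APOO, APOOL, ROMO1, PAM16, GRPEL1, HSPA9, SLIRP, LRPPRC, PMPCA, PMPCB, OPA1, PHB1 and PHB2. The rule found 47 of the 9268 named genes, measured by 56 of the 14747 probes. All samples came from LX-2, an established human line of activated hepatic stellate cells. The cells received 50 pmol of biotin-labelled miR-25-3p duplex (miR-25a-3p in the labels) with Lipofectamine, a lipid transfection reagent, and were lysed 24 hours later. RNA captured on streptavidin beads (pull-down, 3 arrays, titled PD miR-25) was compared with RNA described as total lysate of the same transfected cells (lysate, 2 arrays, titled Control), after the authors had set aside a further lysate sample for low signal. The extraction text given for the lysate samples repeats the bead enrichment, so the name lysate follows the design text and the methods of the study. No untransfected cells, control duplex or beads alone are among the samples, so capture by miR-25-3p and other binding to the beads cannot be told apart.

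Most mitochondrial proteins are made in the cytosol from nuclear genes. Precursors pass the outer membrane through the TOM complex and are then sorted. The TIM23 translocase and its PAM motor draw presequence proteins into the matrix, the small TIM chaperones hand carrier proteins to the TIM22 translocase, the SAM complex inserts barrel proteins into the outer membrane, and the disulfide relay traps small cysteine-rich proteins between the membranes. MICOS and OPA1 organize the folds of the inner membrane, the cristae. Stellate cells, like other nucleated cells, depend on this machinery for respiration.

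The bait was a synthetic duplex of miR-25-3p, whose natural mature strand is shown because every pull-down value below comes from RNA recovered with that duplex. In RefSeq (GRCh38.p14) the mature strand lies at chr7:100093571-100093592 on the minus strand. The capitals mark the seed, bases 2 to 8 from the 5′ end.
hsa-miR-25-3p: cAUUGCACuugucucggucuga
The synthetic strand used by the study was not identical to this one. It had additional bases at its 3′ end, where the biotin was attached. The same seed is carried by hsa-miR-32-5p, hsa-miR-92a-3p, hsa-miR-92b-3p, hsa-miR-363-3p and hsa-miR-367-3p. Transcript sequences were not used here, so seed matches in the members' mRNAs were not examined.

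The small subunits of the TOM complex and its pore protein TOMM40 were higher in the pull-down. So were SLIRP, CHCHD2, TIMM10 and 3 genes of the TIM23 translocase and its motor, while CHCHD3 was lower. The TOM receptors, the prohibitins and OPA1 did not pass the test. All differences are pull-down minus lysate on the deposited scale, with groups taken from the sample titles. The study followed genes as putative targets from its pull-down, chosen for a possible role in stellate cell activation. In the direction used here 6 of the 6 such genes measured had lower values in the pull-down, which opposes the direction of the study. Every direction below follows the sample titles and would turn if the titles were exchanged. Of the 47 members, 10 were higher, 1 was lower and 36 were not called by limma at an adjusted p under 0.05. In the same fit 13.8% of all named genes were called, 7.1% higher and 6.72% lower. The members called higher were thus 21.3% of the members. With a difference of at least 1 on the log2 scale, which is 2-fold, 6 members were higher (12.8%, against 2.41% of all named genes) and 0 were lower (against 3.02%). At an unadjusted p under 0.05, 19 members were higher and 2 lower (against 1525 and 1307 of the 9268 named genes).

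The median difference of the members was 0.23 and that of all named genes 0.04. Of the members 34 had a positive and 13 a negative difference (72.3% positive, against 54.7% of all named genes). The arrays of the groups did not overlap for 31 members (66%, against 49.2% of all named genes), 27 of them higher in the pull-down (27.8% of all named genes) and 4 lower (21.4%).

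The calls lay among the brighter probes. Of 33 members above the median brightness of all probes 10 were higher, and of the 14 members below it 0 were called, with 2 higher at an unadjusted p under 0.05. Over all probes above the median 12.4% were called higher, and over those at or below it 2.89% were called higher and 3.49% lower, so the 0 of 14 says little about the members. For calls of at least 2-fold higher, the shares above the median were 18.2% of the members and 5.43% of all probes. The brightest member value, 13.55 for CHCHD2, stayed below the highest value of every array, 14.57 to 14.76.

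The number of calls changed with the arrays included. When lysate replicate 1 was left out, 0 members passed in limma (12 higher and 1 lower at an unadjusted p under 0.05), as did 0 probes of the whole series (2958 at an unadjusted p under 0.05). Leaving out lysate replicate 2 gave 2 members called higher, leaving out pull-down replicate 2 gave 5 and leaving out pull-down replicate 3 gave 7, PMPCB among them, with 0 lower in each case (1, 2 and 2 lower at an unadjusted p under 0.05). Leaving out pull-down replicate 1 gave 13 higher and 2 lower. Calls over all 14747 probes moved alongside, from 1126 higher and 1046 lower with all arrays to 57 and 34 when lysate replicate 2 was dropped. They were 256 and 131 when pull-down replicate 2 was dropped, 447 and 465 for pull-down replicate 3 and 1244 and 1145 for pull-down replicate 1. The 11 called members kept their direction in all of these fits. Leaving out an array could not have turned it, because the arrays of these members did not overlap between the groups.

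**Figure D1:**
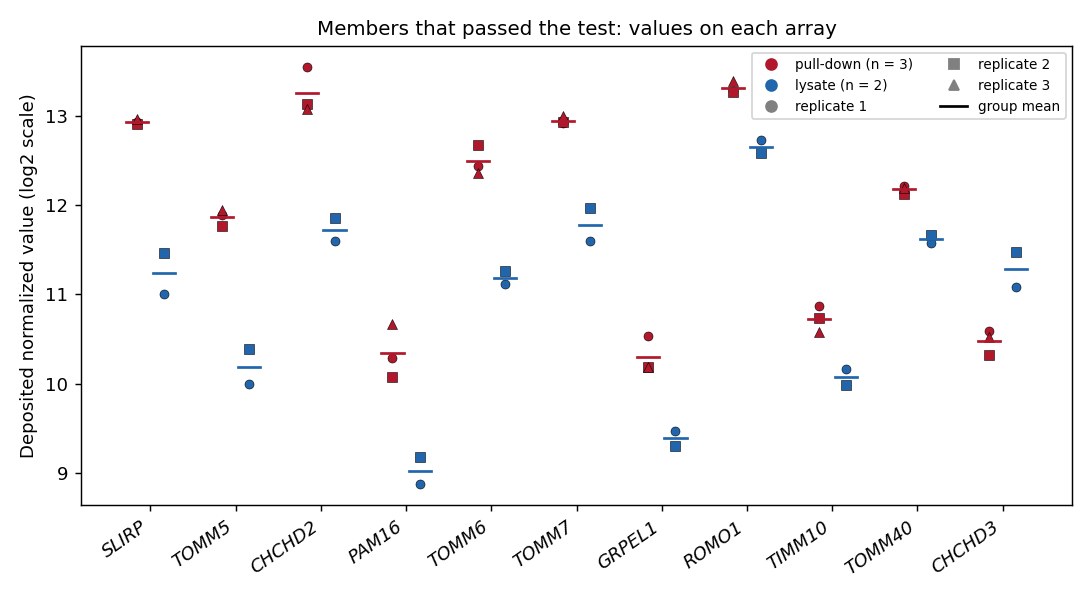
Deposited normalized values (vertical axis, log2 scale) of the 11 members that passed the test, for the 3 pull-down arrays (red) and the 2 lysate arrays (blue), with horizontal bars at the group means. Red and blue points do not overlap for any of these genes, which their selection favours, and CHCHD3 is the one with the pull-down below the lysate.

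In the TOM complex the small subunits stood highest. TOMM5, a small subunit that helps hold the import pore together, measured 11.89, 11.77 and 11.94 in the pull-down, in the order of the replicate numbers, against 9.99 and 10.39 in the lysate. Every pull-down array lay above both lysate arrays, and the lysate arrays differed more from each other than the pull-down arrays did. The difference was 1.68 (SE 0.16, 95% CI 1.29 to 2.06), which is 3.20-fold (limma adjusted p = 0.0087). TOMM6, another small subunit, measured 12.44, 12.68 and 12.37 in the pull-down and 11.11 and 11.27 in the lysate, a difference of 1.31 (SE 0.14), or 2.47-fold (limma adjusted p = 0.01). TOMM7, which in yeast regulates the assembly of the complex, measured 12.92, 12.93 and 12.996 against 11.60 and 11.96. Again no pull-down array reached down to the lysate range. Its difference was 1.17 (SE 0.14), or 2.24-fold (limma adjusted p = 0.0121), and its second probe gave 0.98 (limma adjusted p = 0.0183).

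The pore and the receptors of the same complex differed less. TOMM40, the barrel protein that forms the pore, measured 12.21, 12.13 and 12.19 in the pull-down and 11.58 and 11.67 in the lysate. These groups were also apart, by 0.55 (SE 0.11), or 1.47-fold (limma adjusted p = 0.0279). TOMM40 was the smallest of the called differences, and it was no longer called after cyclic loess or with an intensity trend and a robust prior (limma adjusted p = 0.0558 and 0.0843). TOMM22, the receptor at the centre of the complex, measured 11.17, 11.80 and 11.42 against 10.90 and 10.73, a difference of 0.64 with a 95% CI from 0.14 to 1.15 (limma adjusted p = 0.09). It was called without pull-down replicate 1 (limma adjusted p = 0.0424).

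TOMM20 and TOMM70 are the receptors for presequences and for carrier precursors. TOMM20 measured 10.74, 10.98 and 11.24 in the pull-down and 10.68 and 11.06 in the lysate, so the groups overlapped. The difference was 0.12 (95% CI -0.37 to 0.60), and the second probe gave 0.07. TOMM70 also overlapped, with a difference of 0.12 (95% CI -0.35 to 0.59). For neither receptor does the interval include a 2-fold change. The paralog TOMM40L had a difference of 0.26 (limma adjusted p = 0.187), and TOMM34, a cytosolic cochaperone that carries the family name, had the lowest value of the group at -0.30 (95% CI -0.91 to 0.31). TOMM34 measured 12.03, 11.20 and 11.50 against 11.91 and 11.84, so pull-down array 1 lay above and the others below the lysate. Over the 9 genes with a TOMM symbol, 4 were higher and 0 lower (against 7.1% and 6.72% of all named genes), with a median of 0.55. The difference between small subunits and receptors was not tested. SAMM50, the core of the SAM complex that builds barrel proteins such as TOMM40 into the outer membrane, had a difference of 0.23 (95% CI -0.10 to 0.56).

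**Figure D2:**
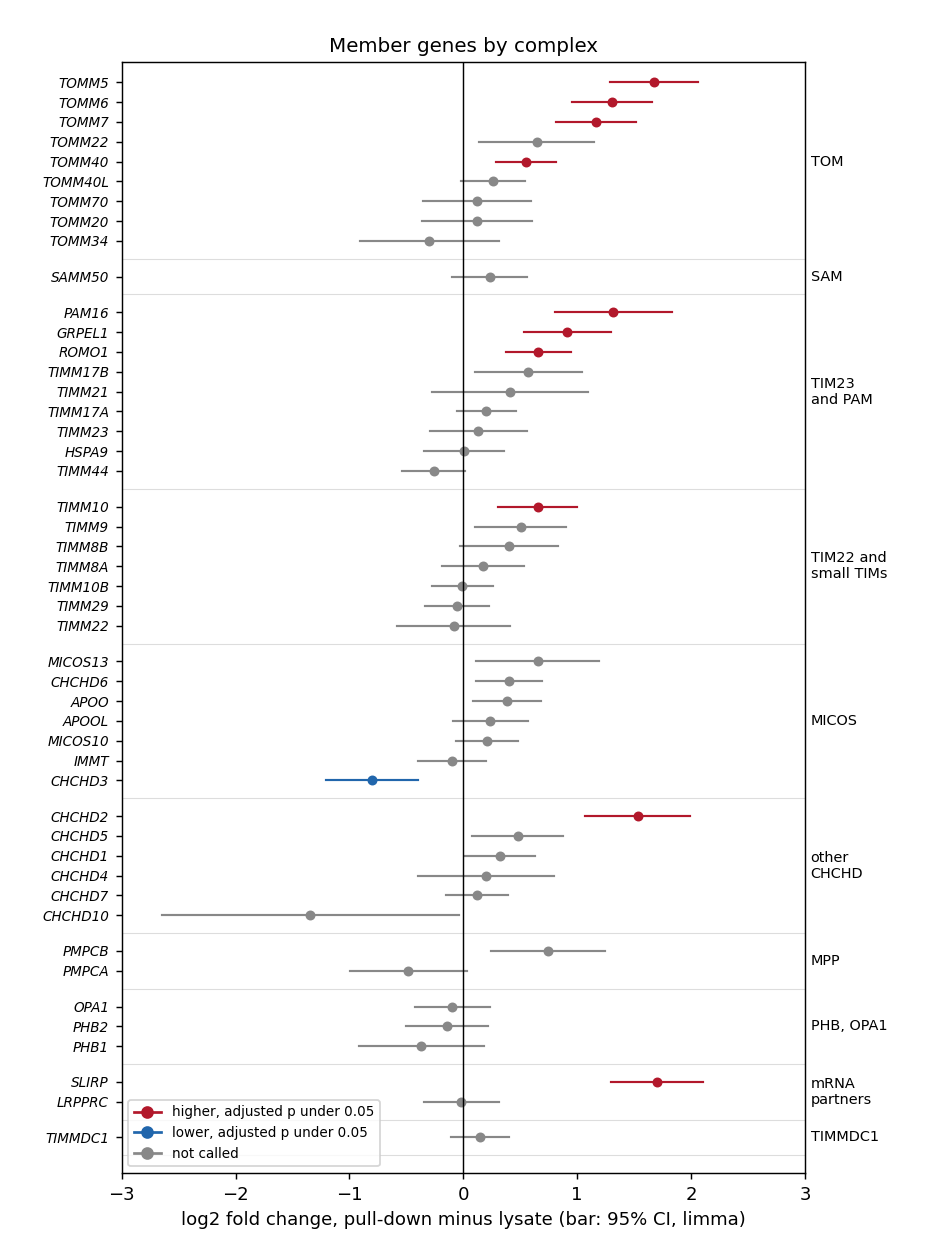
Difference between pull-down and lysate for each of the 47 members (horizontal axis, log2 fold change with 95% CI from limma), grouped by complex. Red marks the 10 genes called higher, blue the 1 called lower and grey those not called, and the small TOM subunits, PAM16, CHCHD2 and SLIRP are the 6 beyond 1.

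Of 9 genes of the TIM23 translocase and its motor, 3 were higher and 0 lower, with a median of 0.41. Over all named genes 7.1% were called higher and 6.72% lower. PAM16, the motor subunit that restrains the J protein stimulating the matrix chaperone, measured 10.28, 10.08 and 10.67 in the pull-down and 8.87 and 9.18 in the lysate. Its pull-down arrays spread over 0.59 but stayed well above the lysate, with a difference of 1.32 (SE 0.21), or 2.49-fold (limma adjusted p = 0.0184). GRPEL1, the nucleotide exchange factor of the matrix chaperone, measured 10.53, 10.19 and 10.18 against 9.47 and 9.30. Its difference was 0.91 (SE 0.15), or 1.88-fold (limma adjusted p = 0.0208). ROMO1, a small inner membrane protein of the translocase, measured 13.28, 13.27 and 13.39 against 12.73 and 12.58. Both of its probes were called by limma, at 0.66 and 0.83, with adjusted p = 0.0218 and 0.0299.

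The chaperone that these motor parts serve did not differ detectably. HSPA9, the matrix Hsp70 that pulls precursors inward, measured 11.94, 11.69 and 11.67 in the pull-down and 11.87 and 11.64 in the lysate. The groups overlapped almost fully, and the difference was 0.01 (95% CI -0.35 to 0.36). TIMM44, which ties the chaperone to the channel, measured 8.51, 8.37 and 8.53 against 8.76 and 8.70. It was the lowest of the group at -0.26 (95% CI -0.54 to 0.02), with the pull-down below the lysate on all arrays and limma adjusted p = 0.181. The channel-forming genes lay above both by the probes used. TIMM17B had a difference of 0.57 (limma adjusted p = 0.101), called without pull-down replicate 1 (limma adjusted p = 0.0323), and TIMM17A, at 0.20, was read by a dim probe. TIMM21, which links the translocase to the respiratory chain, had 0.41 (95% CI -0.28 to 1.09), with 12.43 on pull-down array 1 and 11.51 and 11.81 on the others. Its second probe gave 0.05.

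TIMM23 itself had 4 probes, which did not share a sign. The brightest measured 12.82, 13.15 and 12.94 in the pull-down and 13.04 and 12.63 in the lysate, a difference of 0.13 (95% CI -0.30 to 0.56). The others gave -0.14, -0.22 and -0.32, with limma adjusted p-values from 0.238 to 0.669. No TIMM23 probe was called. TIMM23 has a near-identical copy, TIMM23B, so the target of its probes is uncertain. Neither TIMM23B nor TIMM50 was found among the named genes.

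**Figure D3:**
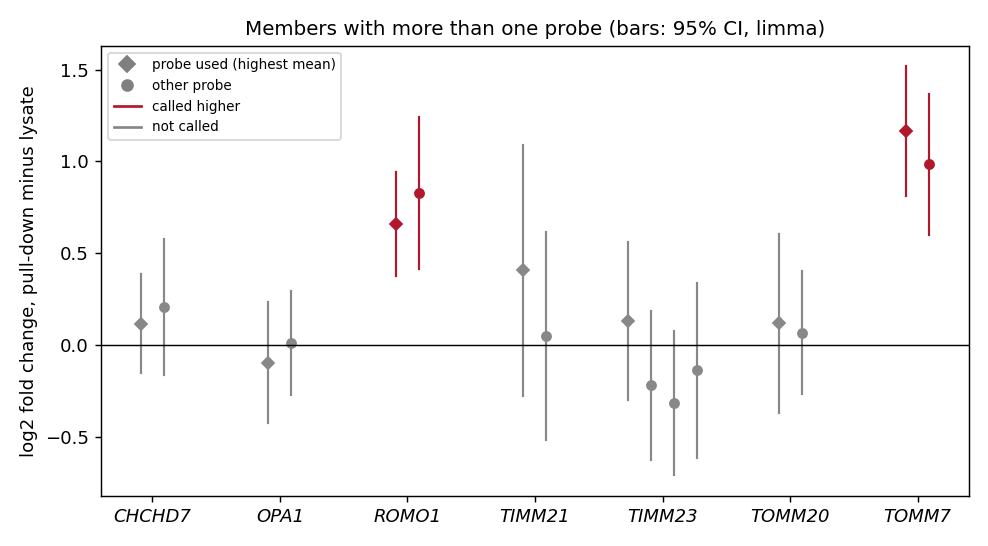
The 7 members with more than 1 probe (vertical axis, log2 fold change with 95% CI from limma). Diamonds mark the probe used, the brightest of its gene, and both probes of ROMO1 and of TOMM7 are called higher (red) while the 4 probes of TIMM23 lie on both sides of 0.

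Of 7 genes of the TIM22 route, 1 was higher and 0 were lower (against 7.1% and 6.72% of all named genes), with a median of 0.17. TIMM10, which pairs with TIMM9 to form the main chaperone of the space between the membranes, measured 10.88, 10.74 and 10.58 in the pull-down and 10.17 and 9.99 in the lysate. The groups were apart by 0.65 (SE 0.14), or 1.57-fold (limma adjusted p = 0.0341). With an intensity trend and a robust prior it was no longer called (limma adjusted p = 0.0635). Its partner TIMM9 measured 11.24, 10.90 and 10.90 against 10.38 and 10.64 and was not called at 0.50 (95% CI 0.10 to 0.90, limma adjusted p = 0.0934). TIMM8A, the gene mutated in deafness-dystonia syndrome, whose chaperone partner is TIMM13, and its paralog TIMM8B had differences of 0.17 (95% CI -0.19 to 0.54) and 0.40 (95% CI -0.03 to 0.83). The parts of the translocase proper lay near 0. TIMM22, the channel for carrier proteins, was the lowest at -0.08 (95% CI -0.58 to 0.41), with 10.83, 10.19 and 10.47 against 10.62 and 10.54. TIMM29, a subunit of the complex, had -0.05, and TIMM10B, which docks the chaperones on it, -0.01. TIMM13 was not found among the named genes.

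MICOS held the single member called lower. CHCHD3, which joins the core subunit IMMT to the outer membrane, measured 10.59, 10.32 and 10.53 in the pull-down and 11.09 and 11.47 in the lysate. All pull-down arrays lay below both lysate arrays. The difference was -0.80 (SE 0.16, 95% CI -1.21 to -0.40), which is 1.74-fold lower (limma adjusted p = 0.031). CHCHD3 was called without pull-down replicate 1 (limma adjusted p = 0.0392), and in none of the 4 fits that left out another array, where its adjusted p-values ran from 0.0803 to 0.143. IMMT measured 10.92, 10.91 and 10.77 against 11.05 and 10.87. These overlapped, with a difference of -0.10 (95% CI -0.40 to 0.20).

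The other MICOS members had positive differences and were not called. MICOS13, a subunit that bridges the parts of the complex, was the highest at 0.65 (limma adjusted p = 0.102). It measured 10.73, 11.32 and 11.24 in the pull-down and 10.29 and 10.61 in the lysate, and was called without pull-down replicate 1 (0.84, limma adjusted p = 0.0296). CHCHD6, the close relative of CHCHD3, measured 8.71, 8.76 and 8.86 against 8.30 and 8.45. Its sign was opposite to that of CHCHD3, at 0.40 (95% CI 0.11 to 0.69, limma adjusted p = 0.0737). The apolipoprotein-like subunits APOO and APOOL had 0.39 (95% CI 0.09 to 0.69, limma adjusted p = 0.088) and 0.24 (95% CI -0.09 to 0.56). MICOS10, which bends the membrane at the necks of cristae, had 0.21 by a dim probe.

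CHCHD genes outside MICOS encode small proteins with paired cysteines. CHCHD2, an intermembrane space protein mutated in some families with Parkinson disease, measured 13.55, 13.14 and 13.08 in the pull-down and 11.60 and 11.86 in the lysate. Pull-down array 1 was the highest and all 3 lay above the lysate. The difference was 1.53 (SE 0.18, 95% CI 1.07 to 1.99), or 2.89-fold (limma adjusted p = 0.0117). Its paralog CHCHD10, mutated in motor neuron disease, had the opposite sign and the widest spread of all members. CHCHD10 measured 9.14, 10.91 and 10.60 in the pull-down and 11.74 and 11.38 in the lysate, so pull-down array 1 stood 1.77 below array 2. The difference was -1.34 with a 95% CI from -2.65 to -0.04 (limma adjusted p = 0.148), and -0.80 without pull-down replicate 1 (limma adjusted p = 0.0503).

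CHCHD4, the oxidoreductase of the disulfide relay that traps such proteins, measured 11.02, 10.23 and 10.47 against 10.38 and 10.37 and overlapped with the lysate. Its difference was 0.20 (95% CI -0.40 to 0.80). CHCHD5 had 0.48 (95% CI 0.08 to 0.87, limma adjusted p = 0.105) and CHCHD1, a protein of the mitochondrial ribosome, 0.32 (95% CI 0.02 to 0.63, limma adjusted p = 0.141). CHCHD7 gave 0.12 and 0.21 by its 2 probes.

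SLIRP had the largest difference of all members. SLIRP and LRPPRC form a complex that binds and stabilizes the messenger RNAs made inside mitochondria. SLIRP measured 12.93, 12.91 and 12.97 in the pull-down and 11.003 and 11.47 in the lysate. The pull-down arrays were nearly equal, and the spread lay in the lysate. The difference was 1.70 (SE 0.16, 95% CI 1.30 to 2.10), or 3.25-fold (limma adjusted p = 0.00881). LRPPRC, its partner, measured 8.91, 8.91 and 8.65 against 8.79 and 8.89. It overlapped with the lysate, at -0.02 (95% CI -0.35 to 0.31). SLIRP and TOMM5 were the 2 members still called without lysate replicate 2, and both were lost without lysate replicate 1 (limma adjusted p = 0.0775 for each).

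The processing peptidase removes presequences in the matrix, and its subunits had opposite signs. PMPCB, the catalytic subunit, measured 10.30, 10.01 and 9.66 in the pull-down and 9.30 and 9.20 in the lysate. It lay higher on every pull-down array, by 0.74 (95% CI 0.24 to 1.24), and missed the threshold (limma adjusted p = 0.0644). PMPCB was called without pull-down replicate 3 (limma adjusted p = 0.049) and without the 25% dimmest probes (limma adjusted p = 0.0495). PMPCA, the subunit that recognizes presequences, measured 9.25, 8.99 and 8.69 against 9.65 and 9.27. It lay lower on every pull-down array, by -0.48 (95% CI -0.996 to 0.03, limma adjusted p = 0.178).

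The prohibitins form ring scaffolds in the inner membrane, and OPA1 is the GTPase that fuses it. None of the 3 was called, and all 3 differences were negative by the probes used. PHB1 measured 11.40, 10.75 and 10.83 in the pull-down and 11.47 and 11.26 in the lysate. Pull-down array 1 fell within the lysate range, and the difference was -0.37 (95% CI -0.92 to 0.18). Without pull-down replicate 1, PHB1 was called lower at -0.57 (limma adjusted p = 0.045). PHB2 overlapped, at -0.15 (95% CI -0.51 to 0.21). OPA1 measured 8.51, 8.74 and 8.80 against 8.83 and 8.73, with -0.10 by the probe used and 0.01 by the other. TIMMDC1, an assembly factor of respiratory complex I that the naming rule brought in, had 0.15 (95% CI -0.11 to 0.40) near the dim end of the arrays.

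**Figure D4:**
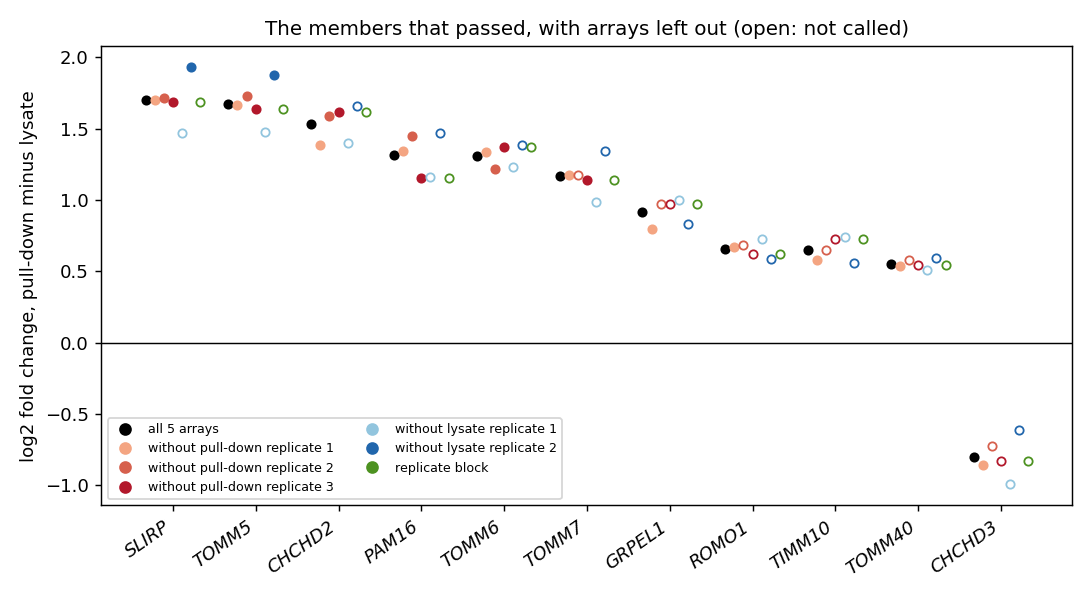
Log2 fold change (vertical axis) of the 11 members that passed the test, in the fit of all 5 arrays, with each array left out and with the replicate number as a block. Filled points were called at an adjusted p under 0.05 and open points were not, and no point crosses 0. None could have crossed, because the arrays of these genes do not overlap between the groups. The block points equal those without pull-down replicate 3.

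Genes of the same pathways that the naming rule leaves out were counted in the same way. Of 28 such genes measured, 5 were higher and 2 lower (against 7.1% and 6.72% of all named genes), with 0 beyond 2-fold and a median of 0.06. MTX2, a partner of SAMM50, was the highest. It measured 10.10, 10.35 and 10.33 in the pull-down and 9.15 and 9.41 in the lysate, a difference of 0.99 (limma adjusted p = 0.0164), and its second probe gave 0.80. DNAJC15, a J protein related to the one in the import motor, measured 9.95, 9.99 and 9.85 against 9.09 and 8.93. Its difference was 0.92 (limma adjusted p = 0.0128). Both were clear of the lysate on every array. HSPE1, DNLZ and MTCH1 were the other 3 called higher, HSPE1 by the brighter of its 2 probes. HSPE1 encodes the lid of the matrix chaperonin. It had a difference of 0.85 (limma adjusted p = 0.0193), while HSPD1, the chaperonin barrel, had -0.30 (limma adjusted p = 0.413) by the brighter probe and was called lower by the other at -0.84 (limma adjusted p = 0.0368). HSPE1, HSPD1 and CHCHD2 have processed copies elsewhere in the genome, and which copies their probes detect was not examined. The choice to name HSPE1, DNLZ, MTCH1 and HSPD1 was made with their values known.

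The 2 lowest of these genes were TRAP1 and OPA3. TRAP1, the matrix Hsp90, measured 9.00, 9.25 and 9.18 in the pull-down and 10.23 and 9.78 in the lysate, a difference of -0.87 (limma adjusted p = 0.0294). OPA3 measured 8.36, 8.64 and 8.61 against 9.28 and 9.51, a difference of -0.86 (limma adjusted p = 0.0201). All pull-down arrays lay below the lysate for both. The 9 peptidases and inner membrane proteases measured, YME1L1 and AFG3L2 among them, had 0 called by limma, with 2 higher at an unadjusted p under 0.05 and differences from -0.29 to 0.49. When either lysate array was left out, 0 of the 28 passed in limma (5 and 8 higher, 2 and 3 lower at an unadjusted p under 0.05). When pull-down replicates 2 or 3 were left out, 1 and 2 were called higher and 0 lower (2 and 3 lower at an unadjusted p under 0.05).

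Promoters were read for letters that many nuclear genes of mitochondria share. RefSeq promoters, from 250 bases before to 50 after the start site (GRCh38.p14), were matched by symbol for 43 of the 47 members. The core motif of nuclear respiratory factor 1 was searched on both strands as GCGCA and GCGC with any base between them. It was present in 10 of 43 members (23.3%), in 13% of the promoters of all named genes on the arrays and in 6.28% of all promoters in the table. The ETS core CCGGAAG, also on both strands and bound by the nuclear respiratory factor GABP, was present in 19 of 43 (44.2%), against 20.9% and 10.7%. In the members no match of one motif overlapped a match of the other. These are matches of letters, not sites of binding, and the arrays did not measure transcription.

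Of the 8 members called higher that had a promoter, 4 held the first motif, and of the 34 not called 6 did. The windows of the 4 are shown because they are the called members with this match. Each is written along the gene's own strand with the match in capitals, at chr7:22822844-22822873 (minus), chr19:44891022-44891051 (plus), chr16:4351326-4351355 (minus) and chr20:35699183-35699212 (plus) of GRCh38.p14.
TOMM7: gccgtgtgtgGCGCCTGCGCacctcctttc
TOMM40: gagccaatagGCGCAGGCGCtgcgagccaa
PAM16: gcgccgtatcGCGCACGCGCtctctgcggc
ROMO1: cgagcgtaccGCGCAGGCGCagcccccgag
In TOMM7 the match reads along the opposite strand. The 6 members not called that held it were TOMM20, TOMM34, TIMM29, IMMT, CHCHD4 and OPA1. The ETS core was in 5 of the 8 members called higher (SLIRP, TIMM10, ROMO1, CHCHD2 and TOMM6) and in 14 of the 34 not called. Neither split by call was tested, and the same splits over all named genes were not counted. All 10 members called higher lay above the median brightness of all probes.

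The spread within groups was as follows. The median range over the 3 pull-down arrays was 0.29 for the members and 0.34 for all named genes, and the median gap between the lysate arrays was 0.18 and 0.17. Pull-down array 1 was the highest of the pull-downs for 20 members, and lysate array 2 lay above lysate array 1 for 20. The median value of each whole array was 9.01 to 9.03. With 3 arrays against 2, the smallest two-sided p of an exact permutation test is 0.1, so single genes rest on limma. Of 12 stellate cell markers looked for 10 were in the table, VIM and TIMP1 the brightest. By the probe used for each gene 0 were called by limma and 0 had an unadjusted p under 0.05, while the second probe of TAGLN was called lower (-1.12, limma adjusted p = 0.0449). Their summed level was 15.34 to 15.66 in the pull-down and 15.50 to 15.87 in the lysate on the log2 scale. VIM and TIMP1 weighed most in this sum, and single markers spread more. COL1A1 measured 8.87, 11.53 and 10.13 in the pull-down and 12.57 and 11.07 in the lysate. Its difference was -1.64 (limma adjusted p = 0.24). By the probes used 4 stellate cell markers had a positive and 6 a negative difference. Of 6 hepatocyte markers 2 were in the table, ALB and SERPINA1, of 5 macrophage and leukocyte markers 2, of 4 cholangiocyte markers 1 and of 4 endothelial markers 0, with 0 called by limma and 0 at an unadjusted p under 0.05 by the probe used. The second probe of CD68 had a difference of -1.17 with no overlap between the groups (limma unadjusted p = 0.015, adjusted p = 0.0745).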

How the data were processed

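RNA of 3 pull-downs and 2 lysates was hybridized to Illumina Human HT-12 bead arrays, after amplification of the captured RNA. The authors normalized the signals and deposited them on a log2 or log2-like scale, with lumi and limma named in their processing notes. The sources used here do not settle whether lumi applied a plain log2 or its variance-stabilizing transform, nor name the tool versions or the probe filter, so a fold stated here may understate the change of dim probes. A further deposited table, with 10 columns of values before normalization, was set aside because its column names match no sample, and detection and background were therefore not examined.

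The groups were compared over 14747 probes and 5 arrays with lmFit and eBayes of limma 3.58.1 in R 4.3.3. P-values are two-sided, adjusted by Benjamini-Hochberg across the whole set of probes, and 95% intervals come from the moderated fit. The fit was tested on simulated data. The study describes independent biological replicates, but the labels name no cultures, so p-values measure the spread between these arrays. Symbols were taken from the GEO annotation of the platform, in which 11970 probes carried 1 symbol, 1 carried several and 2776 carried no symbol. A gene stands for its probe with the highest mean. Members and lists were chosen with earlier results of these data known. Every member is accounted for. Values on each array are given for called members and for the highest and lowest of each complex with several members. For members whose probes differ in sign they are given by the probe used. Of the other pathway genes the 2 highest and 2 lowest are named. Alternatives were median scaling, cyclic loess, an intensity trend with a robust prior, array weights, removal of the 25% dimmest probes, the mean of a gene's probes, a replicate block and leaving out each array. Promoter and miRNA sequences came from RefSeq tables of GRCh38.p14. Protein lengths were not used here.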

Additional observations from a re-analysis of the deposited data

How the results depend on the processing

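The 11 called members kept their direction under all 12 alternatives. Settings that drop, weight or block arrays could not have turned it, because the arrays of these members did not overlap between the groups. The median difference of the members stayed between 0.18 and 0.31, and no other setting than the block and the left-out arrays moved a count of calls by more than 1.5 times. With each array left out, the members called higher ranged from 0 to 13, those called at least 2-fold higher from 0 to 6 and those called lower from 0 to 2. The other pathway genes called higher then ranged from 0 to 4 and lower from 0 to 2, and of all probes 0 to 1244 were called higher and 0 to 1145 lower. With the replicate number as a block, limma called 0 members higher, 0 at least 2-fold higher and 0 lower (12 and 2 at an unadjusted p under 0.05), 0 of the other pathway genes in either direction (7 and 2 at an unadjusted p under 0.05), and, of all probes, 53 higher and 162 lower. No lysate array carries replicate number 3, so pull-down replicate 3 adds nothing to the difference in that fit. Its estimates are therefore those without pull-down replicate 3 (for TOMM7 1.14 in both), with fewer residual degrees of freedom. Over all probes the deviations of same-numbered arrays correlated at r = 0.04 for number 1 and -0.43 for number 2, while pull-down 2 with lysate 1 gave 0.43 and pull-down 3 with lysate 2 gave 0.48. With 2 lysate arrays, the correlation with one is the negative of that with the other. The study took lysate and pull-down from the same cells, but which arrays belong together is not stated by the labels, so no other pairing was fitted and the calls rest on the unpaired fit.

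Some members near 0 changed sign and were called in no fit; the cause was not tested. These were HSPA9 (-0.12 after cyclic loess and -0.054 with array weights), TIMM10B (0.014 with array weights) and TIMM23 (-0.13 as the mean of its probes). With the block they were LRPPRC (0.068) and TOMM20 (-0.0073), the same estimates as without pull-down replicate 3. With single arrays left out, the difference ranged from -0.11 to 0.12 for HSPA9, from -0.043 to 0.026 for TIMM10B, from -0.026 to 0.37 for CHCHD4, from -0.25 to 0.071 for TIMM22, from -0.0697 to 0.33 for TIMM23, from -0.11 to 0.00076 for TIMM29, from -0.071 to 0.31 for TOMM20, from -0.072 to 0.31 for TOMM70 and from -0.068 to 0.068 for LRPPRC.

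Members not called in the fit of all 5 arrays but called under an alternative were TOMM22, TIMM17B, MICOS13 and CHCHD6 with array weights, TOMM22, TIMM17B, MICOS13 and PHB1 without pull-down replicate 1, PMPCB without pull-down replicate 3 or the 25% dimmest probes, and TIMM17A with the trend and robust prior. Signal over background was not analysed here, nor therefore how many of the 14 members at or below the median brightness were near background.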
